A study of Mus musculus with 9 samples.

Results

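Gpnmb, Spp1, Lgals3, Lgals1, Cd9 and Cd63 are abundant transcripts of lipid-associated macrophages, the macrophage state that gathers around lipid-loaded or damaged tissue. These 6 genes were taken by name from the 55401 gene IDs of the deposited count table, after the IDs were matched to mouse symbols, and all 6 were among the 13501 genes with enough counts to test. The table holds RNA-seq of primary mouse peritoneal macrophages, in 3 libraries for each of 3 genotypes. The cells were elicited with thioglycollate, kept in medium with serum, allowed to adhere briefly and lysed, and the poly(A) RNA was sequenced. Wild type (WT) was set against 2 homozygous substitutions of Ser807, a serine of STAT6: Stat6S807A/S807A (SA), in which the serine is an alanine and cannot be phosphorylated, and Stat6S807E/S807E (SE), in which it is a glutamate, an acidic residue chosen in many studies to mimic phosphoserine. The study's title links phosphorylation of this serine to macrophage senescence. Wild-type cells received the same elicitation and culture as the mutants. The labels give no strain, age or sex, no treatment with IL-4, and do not say whether the 3 libraries of a genotype came from separate or pooled mice. The p-values below therefore measure the spread between these libraries, which may be technical in part.

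Lipid-associated macrophages engulf lipid and cell debris through receptors such as TREM2 and route it to lysosomes, and their program joins lipid-binding proteins, lysosomal proteases and secreted matrix proteins. Gpnmb encodes a transmembrane glycoprotein of lysosomes and the cell surface, whose ectodomain can be shed, and Spp1 encodes osteopontin, a secreted phosphoprotein that binds integrins and CD44. Lgals3 and Lgals1 encode galectins, which bind beta-galactosides, and galectin-3 also gathers on damaged lysosomes. Cd9 and Cd63 encode tetraspanins, four-pass membrane proteins of the plasma membrane and of late endosomes and exosomes. STAT6 is the transcription factor that IL-4 and IL-13 activate in macrophages, through phosphorylation of a tyrosine.

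The library totals ran from 17286617 to 24618608 assigned counts, so that 3 counts corresponded to between 0.12 and 0.176 CPM (counts relative to the library total, after scaling by the trimmed mean of M-values). The cells carried the transcripts of their label: all 10 core macrophage genes were tested, among them Lyz2, Csf1r and Cd68. Their summed level was 19260 to 24490 CPM in wild-type libraries, 19360 to 20130 for SA and 19280 to 22090 for SE. Of the 10, edgeR called 1 higher and 1 lower in SA against WT (20%, beside 4.07% of all genes). In SE against WT 3 were called lower and 0 higher (30%, beside 5.04%). In SE against SA 1 was called higher and 2 lower (30%, beside 10.2%). Resident large peritoneal macrophage markers (10 genes) summed to 40.91 to 48.37 CPM for WT. Their sum was 25.94 to 27.85 CPM for SA and 31.3 to 31.96 CPM for SE. Of the 4 tested, 1 was called higher and 1 lower in SA against WT (50%, beside 4.07% of all genes). In SE against WT 0 were called higher and 1 lower (25%, beside 5.04%). In SE against SA 1 was called higher and 1 lower (50%, beside 10.2%). In each mutant against WT, 3 of the 4 had a log2 difference above 0, opposite in direction to the sum. The part of these markers was not tested. The defining genes of neutrophils (Ly6g) and T cells (Cd3e) had no counts in any library, but other genes of their lists did. The 10 neutrophil genes summed to 2.374 to 2.796 CPM (WT), 2.497 to 3.135 (SA) and 3.138 to 3.433 (SE). In the same order, the 9 T and NK cell genes summed to 5.313 to 6.223, 5.345 to 5.774 and 3.927 to 4.461 CPM. The 6 eosinophil genes summed to 25.3 to 28.53, 21.96 to 26.75 and 21.1 to 27.99 CPM. The 7 platelet and red cell genes summed to 25.01 to 31.41, 21.38 to 25.43 and 28.01 to 31.33 CPM. The 7 endothelial and adipocyte genes summed to 326.1 to 417.8, 326.6 to 380.1 and 384.1 to 475.5 CPM, with Vwf at 305.3 to 449.1 CPM. Of the 3 tested, 1 was called lower in SA against WT (33.3%, beside 4.07% of all genes). In SE 1 was called higher against WT and 1 against SA (33.3% each, beside 5.04% and 10.2%). The dendritic, B and mast cell lists each summed to at most 4.54 CPM in any library. Over 12 genes, mesothelial and fibroblast transcripts summed to 4.20 to 5.17 CPM in the WT libraries, to 47.2 to 53.6 CPM in the SA libraries and to 8.84 to 12.6 CPM in the SE libraries, of which Msln, Krt19 and Wt1 were at 0. All 5 of these that were tested were called higher in SA than in WT (beside 4.07% of all genes) and lower in SE than in SA (beside 10.2%). In SE against WT 2 of the 5 were called higher (40%, beside 5.04%). The part of these genes in the results below was not tested. Monocyte and small peritoneal macrophage markers (9 genes) summed to 334 to 400 CPM for WT, 308 to 387 CPM for SA and 652 to 765 CPM for SE. Most of that sum was Retnla and Chil3, which alternatively activated macrophages also make. Of the 5 tested, 1 was called higher and 1 lower in SA against WT (40%, beside 4.07% of all genes). In SE against WT 3 were called higher and 1 lower (80%, beside 5.04%). In SE against SA 2 were called higher and 2 lower (80%, beside 10.2%). The part of these markers was not tested either. In bulk RNA, fewer cells of a type and less RNA per cell cannot be told apart.

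The RefSeq promoter table for GRCm38.p6 held a window of 250 bases before to 50 bases after the start for 5 of the 6 genes. The windows of 3 genes are shown because their levels behaved differently below: Gpnmb, which fell in SA, Lgals3, which separated SE from SA, and Spp1, for which no difference was called. All run 5′ to 3′ on the plus strand. In capitals are matches to the AP-1 letters TGANTCA in Gpnmb (chr6:49036268-49036567), to TTC and GAA with any 4 bases between, the spacing STAT6 is known to prefer, in Lgals3 (chr14:47373610-47373909), and to the PU.1 letters GAGGAAGT in Spp1 (chr5:104434861-104435160).
Gpnmb: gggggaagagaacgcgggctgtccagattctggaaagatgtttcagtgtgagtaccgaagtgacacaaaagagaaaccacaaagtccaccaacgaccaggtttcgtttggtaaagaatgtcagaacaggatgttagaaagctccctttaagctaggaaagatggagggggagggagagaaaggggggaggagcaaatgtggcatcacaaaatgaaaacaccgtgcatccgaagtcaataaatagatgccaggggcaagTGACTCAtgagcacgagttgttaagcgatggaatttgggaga
Lgals3: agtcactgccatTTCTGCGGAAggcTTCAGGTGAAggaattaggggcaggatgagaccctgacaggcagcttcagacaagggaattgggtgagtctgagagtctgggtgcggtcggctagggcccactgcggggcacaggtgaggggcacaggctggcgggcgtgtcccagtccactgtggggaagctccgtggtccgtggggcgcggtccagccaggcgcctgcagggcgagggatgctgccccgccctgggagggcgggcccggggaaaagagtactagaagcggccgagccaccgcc
Spp1: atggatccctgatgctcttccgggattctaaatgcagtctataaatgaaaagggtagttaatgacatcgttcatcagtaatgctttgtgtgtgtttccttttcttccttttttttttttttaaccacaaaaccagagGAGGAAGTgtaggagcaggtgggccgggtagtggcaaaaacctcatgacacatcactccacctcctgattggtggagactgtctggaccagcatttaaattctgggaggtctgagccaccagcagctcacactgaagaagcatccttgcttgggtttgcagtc

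The Lgals3 window held 2 matches to this STAT6 pattern, at -238 to -229 and at -225 to -216 from its RefSeq start, and the windows of the other members held none. This Lgals3 window lies inside the span given below for the gene (47367751 to 47386160), so its matches are not upstream of that span. The Cd63 window also lies inside the span of its gene (128900989 to 128912822). At least 1 such match was present in 6.95% of the 32851 windows of this length, and 2 or more in 0.323% (106 windows). The AP-1 match of Gpnmb lay at 9 to 15 bases after the RefSeq start of its window, but before the gene start given below (49036546). Of all windows, 7.81% held TGANTCA. The PU.1 match of Spp1 lay at -113 to -106, and 3.2% of windows held GAGGAAGT. Both strands were searched, and CACGTG (7.15% of windows), TCATGTG (3.77%) and TTCNNNGAA (8.3%) were in none of the 6 windows of these genes. A match describes letters in a window, not binding, and the windows for Cd9, Cd63 and the second start of Spp1 held none of the letters searched.

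More counts fell on Gpnmb than on any other gene in the wild-type macrophages, and fewer in the SA mutant. On mouse build GRCm38 it lies on the plus strand of chromosome 6 at 49036546 to 49070929, with 11 exons in its principal transcript (ENSMUSG00000029816). Its level was 16795, 20940 and 17987 CPM in WT1, WT2 and WT3, 12727, 12577 and 13973 CPM in SA1, SA2 and SA3, and 17276, 17574 and 19334 CPM in SE1, SE2 and SE3. Every SA library lay below every WT and every SE library, while WT and SE overlapped. By CPM, which is not corrected for transcript length, Gpnmb ranked first among all genes in each WT and each SE library and second in each SA library, where Psap, the precursor of the saposins that help lysosomal lipid breakdown, came first at 13566, 13905 and 15446 CPM. In share of all assigned counts it ran from 1.71% to 2.04% for WT, from 1.29% to 1.41% for SA and from 1.72% to 1.87% for SE.

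Gpnmb fell in SA by 0.50 ± 0.08 on the log2 scale (SE of the estimate, 95% interval -0.67 to -0.34), from a mean of 18574 ± 2134 CPM (SD, n = 3) to 13092 ± 767 CPM, which is 1.42-fold lower (edgeR adjusted p = 0.00077). It was the sole one of the 6 genes called in this comparison (16.7%), beside 4.07% of all genes tested (2.1% called lower) and 6.02% of the 2078 genes with a mean of at least 100 CPM. Lgals3 was called as well by DESeq2, and 2 of the 6 had an unadjusted p under 0.05 in edgeR. In SE the mean was 18061 ± 1112 CPM, with a log2 difference from WT of -0.04 (95% interval -0.21 to 0.13, edgeR adjusted p = 0.846). Against SA, Gpnmb rose in SE by 0.46 ± 0.08 on the log2 scale, or 1.38-fold (95% interval 0.30 to 0.63, edgeR adjusted p = 0.00104). SE vs SA and SA vs WT share the 3 SA libraries, so these differences are not independent of each other.

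Lgals3, the galectin that marks phagocytic macrophages and ruptured lysosomes, lies on the plus strand of chromosome 14 at 47367751 to 47386160 (ENSMUSG00000050335). Its level was 7861, 9303 and 8343 CPM in the 3 WT libraries, 7171, 7051 and 7626 CPM in SA and 9840, 9944 and 10190 CPM in SE. The 3 groups did not overlap at all, in the order SA, WT, SE, and by CPM the gene ranked between place 5 and place 7 in every library. The means were 8502 ± 734, 7283 ± 303 and 9992 ± 180 CPM (SD, n = 3 each). Between SE and SA the difference was called, at 0.46 ± 0.07 on the log2 scale, or 1.37-fold (95% interval 0.32 to 0.60, edgeR adjusted p = 0.000245). The steps from WT were smaller and not called: -0.22 ± 0.07 in SA (edgeR adjusted p = 0.0786) and 0.23 ± 0.07 in SE (edgeR adjusted p = 0.0525). Both lay close to the threshold, and each was called by DESeq2 (adjusted p = 0.027 and 0.0173). Without WT1 the SA step was called (edgeR adjusted p = 0.0205), and without WT2, the highest WT library, so was the SE step (edgeR adjusted p = 0.0036).

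Lgals1 encodes galectin-1, a dimeric galectin that is secreted without a signal peptide. It lies on the plus strand of chromosome 15 at 78926725 to 78930465 (ENSMUSG00000068220). Its level was 652, 820 and 695 CPM in WT, 696, 656 and 722 CPM in SA and 845, 866 and 857 CPM in SE. The SE libraries lay close together and above all others, whereas WT and SA overlapped and WT2 stood above the other wild-type libraries. The means were 722 ± 87.4, 691 ± 33.4 and 856 ± 10.6 CPM (SD, n = 3 each). Lgals1 rose in SE against SA by 0.31 ± 0.07 on the log2 scale, or 1.24-fold (edgeR adjusted p = 0.0113), a call that was lost without SA1 (adjusted p = 0.0533) and without SA2 (0.0815). Against WT the difference was 0.25 ± 0.07 in SE, or 1.19-fold (edgeR adjusted p = 0.0613), and without WT2 it was called (adjusted p = 0.00132). In SA it was -0.06 ± 0.07 (95% interval -0.22 to 0.09, edgeR adjusted p = 0.817).

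Of the other galectin genes, 4 were tested and none was called in any of the 3 comparisons by edgeR or DESeq2, nor did any pass at an unadjusted p under 0.05. Of all genes, edgeR called 4.07% in SA against WT, 5.04% in SE against WT and 10.2% in SE against SA. The more abundant ones were Lgals8, whose product recognises damaged endomembranes, at 128 ± 1.2, 121 ± 6.95 and 123 ± 6.11 CPM over WT, SA and SE, and Lgals9 at 62.9 ± 4.39, 66.1 ± 0.97 and 60.7 ± 2.81 CPM. Among 11 partners of galectin-3 and glycan enzymes, none was called in SA against WT (by edgeR or DESeq2, with 3 at an unadjusted p under 0.05). The share called was 27.3% in SE against WT and 18.2% in SE against SA. In SE against WT, Slc3a2, the CD98 heavy chain that galectin-3 binds, rose by 0.23 on the log2 scale (372 ± 17.1 to 437 ± 25.2 CPM, edgeR adjusted p = 0.0266). Trim16, which acts with galectin-3 on damaged lysosomes, fell by 0.44 (14.6 ± 0.86 to 10.8 ± 0.48 CPM, edgeR adjusted p = 0.00945), and the efferocytosis receptor Mertk fell by 0.34 (67.6 ± 4.19 to 53.3 ± 6.19 CPM, edgeR adjusted p = 0.0195). Against SA, Slc3a2 rose in SE by 0.42 and Trim16 fell by 0.47. Lamp1, a lysosomal membrane glycoprotein gene and the highest of these per kilobase of exon, was not called at 2399 ± 163, 2279 ± 84.8 and 2360 ± 87.0 CPM, nor was Lgals3bp, the gene of a secreted galectin-3 ligand, at 648 ± 32.6, 714 ± 23.4 and 708 ± 55.5 CPM.

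Cd63, a tetraspanin of late endosomes, lysosomes and exosomes, lies on the plus strand of chromosome 10 at 128900989 to 128912822 (ENSMUSG00000025351). Its level was 1103, 1182 and 1114 CPM in WT, 1095, 1100 and 1203 CPM in SA and 1297, 1388 and 1252 CPM in SE. All SE libraries stood above all others, and WT and SA overlapped with the same mean, 1133 ± 43.1 and 1133 ± 60.6 CPM (SD, n = 3 each) against 1312 ± 69.5 CPM in SE. Cd63 rose in SE against SA by 0.21 ± 0.06 on the log2 scale, or 1.16-fold (edgeR adjusted p = 0.034). This call was lost in 8 of 18 alternatives, among them leaving out any one of WT3, SA1, SA2, SE1 and SE2, with an adjusted p of up to 0.17. Against WT the difference in SE was of the same size, 0.21 ± 0.06, and not called (edgeR adjusted p = 0.0538), but it was called without WT2 (adjusted p = 0.0218) and without SE3 (0.0288).

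A transcribed processed pseudogene, Cd63-ps, can share reads with Cd63 and held 1114 to 1828 counts per library, or 5.24% to 6.47% of the counts of both together. Its fold changes ran alongside those of Cd63, with log2 differences of 0.22 in SE against WT (edgeR adjusted p = 0.117) and 0.22 in SE against SA (edgeR adjusted p = 0.0805). With both summed, Cd63 differed by 0.21 on the log2 scale between SE and SA (edgeR adjusted p = 0.0316) and by 0.21 between SE and WT (edgeR adjusted p = 0.0505). How the reads divide between the gene and its copy depends on the authors' counting, so the level of Cd63 is uncertain, by an amount that was not measured.

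Cd9, a tetraspanin of the plasma membrane that partners with integrins, showed the narrowest spread of the 6 genes over the 9 libraries. It lies on the minus strand of chromosome 6 at 125460266 to 125494791 (ENSMUSG00000030342). Its level was 843, 847 and 869 CPM in WT, 830, 835 and 830 CPM in SA and 873, 845 and 855 CPM in SE. The SA libraries lay just below all others, by a margin of a few CPM, and WT and SE overlapped. The log2 difference was -0.04 in SA against WT (95% interval -0.14 to 0.07, edgeR adjusted p = 0.858), 0.01 in SE against WT (-0.10 to 0.12, adjusted p = 0.956) and 0.04 in SE against SA (-0.06 to 0.15, adjusted p = 0.664). The interval bound farthest from 0 was 0.15 on the log2 scale.

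Among 17 other tetraspanin genes tested, none was called in SA against WT (by edgeR or DESeq2, with 1 at an unadjusted p under 0.05), beside 4.07% of all genes. In SE against WT 3 fell (17.6%, beside 5.04% of all genes). Cd82, known to restrain cell motility, went from 40.7 ± 1.19 to 31.0 ± 2.25 CPM (log2 -0.40, edgeR adjusted p = 0.00274) and the leukocyte tetraspanin Cd37 from 188 ± 13.4 to 160 ± 8.47 CPM (log2 -0.23, edgeR adjusted p = 0.049). The other, Tspan33, was under 3 CPM in every library. Against SA, 3 fell in SE (17.6%, beside 10.2% of all genes): Cd82 (log2 -0.50), Cd37 (-0.25) and Cd81 (-0.25). The highest per kilobase of exon, Cd53 (328 ± 9.09, 342 ± 10.7 and 346 ± 25 CPM), Cd151 (159 ± 18.0, 152 ± 7.81 and 179 ± 18.4 CPM) and Tspan14 (159 ± 6.24, 145 ± 6.79 and 163 ± 11.5 CPM), were not called in any comparison. Of 11 partners and sheddases of tetraspanins, 9.09% were called in SA against WT, 18.2% in SE against WT and 36.4% in SE against SA, beside 4.07%, 5.04% and 10.2% of all genes. In SE against WT 2 integrin chain genes fell: Itga6 from 112 ± 13.1 to 70.3 ± 0.74 CPM (log2 -0.67, edgeR adjusted p = 4.78e-05) and Itga4 from 87.4 ± 12.4 to 65.3 ± 5.72 CPM (log2 -0.43, edgeR adjusted p = 0.0087). Ptgfrn, which binds CD9 directly, fell in SA against WT from 16.2 ± 0.83 to 11.6 ± 0.23 CPM (log2 -0.47, edgeR adjusted p = 0.0042) and rose in SE against SA by 0.56, where Itga4 (log2 -0.47), Itga6 (-0.44) and the sheddase gene Adam17 (-0.23) fell. Sdcbp, the gene of syntenin, which binds CD63, was not called at 864 ± 65.7, 833 ± 44.1 and 832 ± 38.9 CPM.

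Spp1 lies on the plus strand of chromosome 5 at 104435118 to 104441050 (ENSMUSG00000029304). Its level was 798, 719 and 788 CPM in WT, 734, 671 and 826 CPM in SA and 653, 769 and 779 CPM in SE. The 3 groups overlapped throughout, with means of 768 ± 43.0, 744 ± 78.1 and 733 ± 69.6 CPM (SD, n = 3 each). No comparison was called: the log2 difference was -0.05 in SA against WT (95% interval -0.22 to 0.12, edgeR adjusted p = 0.893), -0.07 in SE against WT (-0.24 to 0.10, adjusted p = 0.724) and -0.02 in SE against SA (-0.19 to 0.15, adjusted p = 0.92). Spp1 belongs to the small integrin-binding ligand family of bone and tooth, of which none of the other members could be tested: Ibsp had at most 2 counts and Dmp1, Dspp and Mepe had 0.

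Of 18 genes for osteopontin receptors and the proteases that cut it, 12 could be tested, and Mmp3, Mmp7 and Itgb6 had 0 counts in every library. The share of the 12 that was called was 16.7% in SA against WT, 8.33% in SE against WT and 25% in SE against SA. Beside these stood 4.07%, 5.04% and 10.2% of all genes. Cd44 stood at 521 ± 22.0, 522 ± 10.1 and 557 ± 29.0 CPM (WT, SA and SE) and Itgb1 at 569 ± 33.9, 590 ± 9.27 and 581 ± 27.9 CPM, and neither was called, nor was Itgb5 at 761 ± 52.0, 665 ± 20.1 and 747 ± 64.3 CPM. Of the 12 tested, Mmp12, the macrophage metalloelastase, fell in SA against WT from 1030 ± 160 to 710 ± 80.9 CPM (log2 -0.54, edgeR adjusted p = 0.00341) and rose in SE against SA by 0.46 (edgeR adjusted p = 0.00611). Itgb3 rose in SA from 59.8 ± 1.91 to 70.8 ± 3.32 CPM (log2 0.24, edgeR adjusted p = 0.0471). Plau, the urokinase gene, rose in SE against SA from 102 ± 12.0 to 134 ± 5.29 CPM (log2 0.39, edgeR adjusted p = 0.00231). The Itga4 fall in SE, already given, was the 1 call of this list in SE against WT and the 1 fall in SE against SA.

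**Figure D1:**
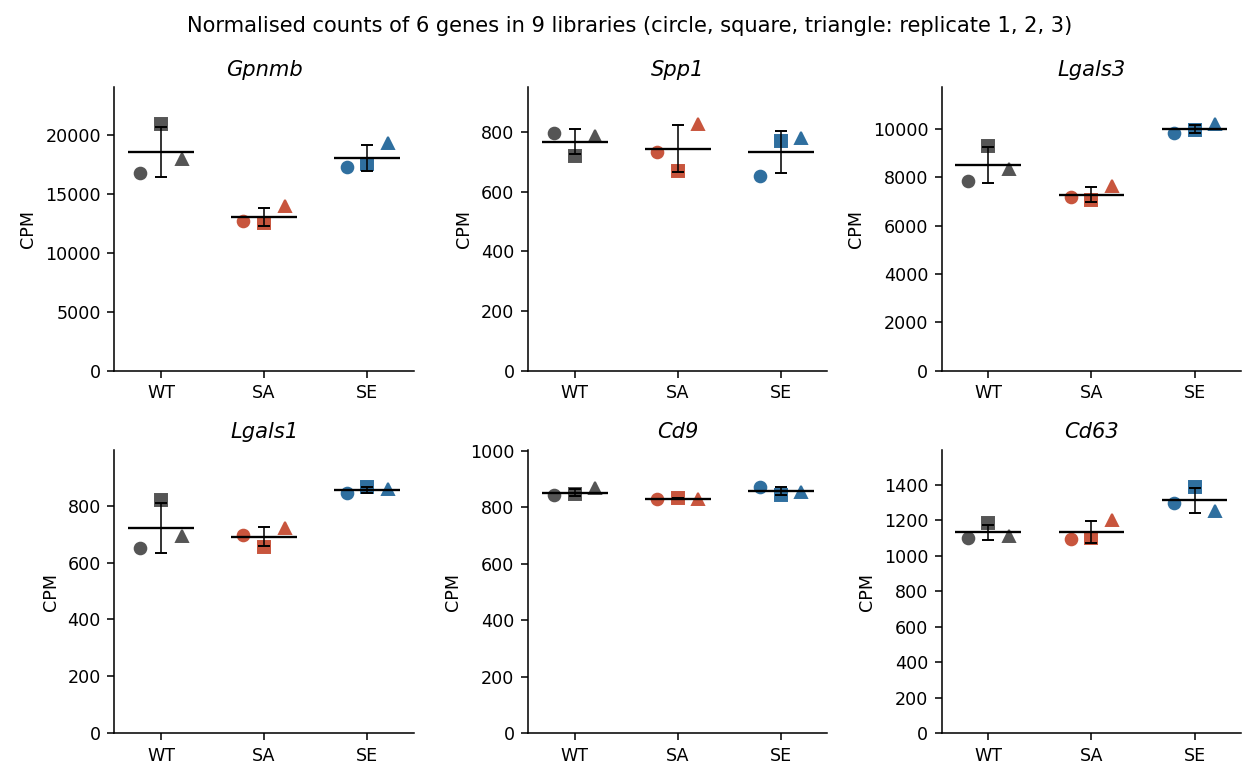
Level of each of the 6 genes in CPM by library (points), with the mean and SD of the 3 libraries of WT, SA and SE. Gpnmb lies lowest in the 3 SA libraries at 12577 to 13973 CPM, Lgals3 separates all 3 groups, and Spp1 overlaps in all of them.

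Across the 6 genes, SE against SA had the most calls, with 4 of 6 higher (Gpnmb, Lgals3, Lgals1 and Cd63, 66.7%) and 0 lower, beside 10.2% of all genes called in that comparison (15.3% of those of at least 100 CPM) and 4.77% of all genes called higher. The median of the members' log2 differences was 0.26, beside -0.00308 over all genes tested. In SE against WT, 0 of 6 were called by edgeR, beside 5.04% of all genes (7.46% of those of at least 100 CPM). DESeq2 called 3 of the 6 there, all higher (Lgals3, Lgals1 and Cd63), and the same number passed at an unadjusted p under 0.05 in edgeR. The CPM of the groups did not overlap for 3 of 6 members in that comparison, beside 20.5% of all genes. It did not overlap for 3 of 6 in SA against WT (Gpnmb, Lgals3 and Cd9), beside 19.3%, and for 5 of 6 in SE against SA, beside 28.3%.

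**Figure D2:**
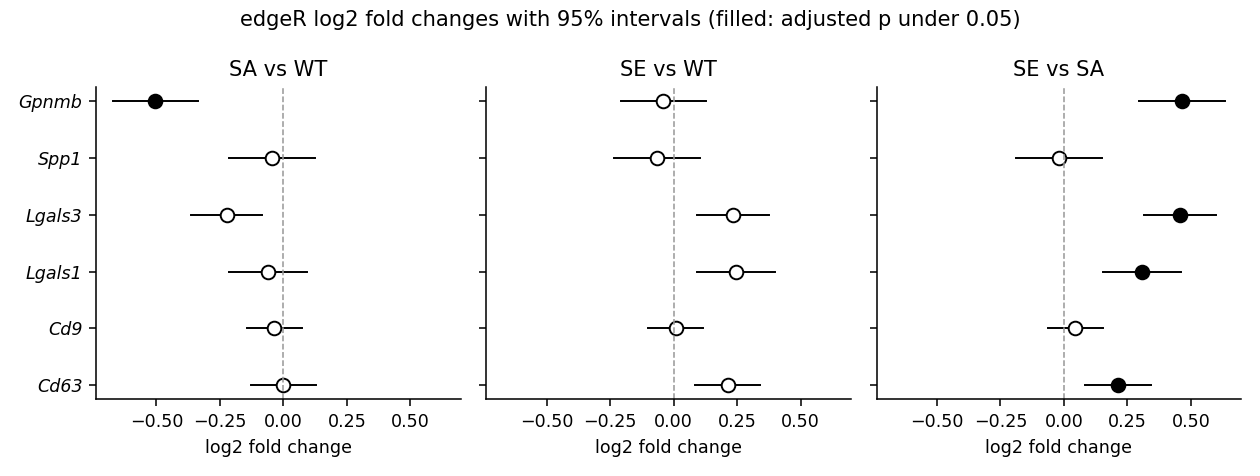
Log2 fold change of the 6 genes in each comparison with its 95% interval (edgeR), where filled points are called at an adjusted p under 0.05. Gpnmb is the gene called in both SA vs WT (-0.50) and SE vs SA (0.46), and no gene is called in SE vs WT.

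The members did not vary together as one block. Over the 9 libraries, Pearson's r of log2 CPM was 0.84 between Gpnmb and Lgals3, 0.92 between Lgals3 and Lgals1 and 0.89 between Lgals1 and Cd63, but 0.13 between Gpnmb and Spp1 and -0.06 between Lgals3 and Spp1. With each genotype's mean taken off, r was 0.96 between Gpnmb and Lgals3 and 0.96 between Lgals3 and Lgals1, and -0.17 between Gpnmb and Cd9. WT2 was the highest wild-type library for Gpnmb, Lgals3, Lgals1 and Cd63, and also for the summed macrophage core genes. These points share library and scaling, so the values are a description of 9 libraries.

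Among 9552 other genes of at least 5 CPM, the levels that ran closest to Gpnmb over the 9 libraries were those of Fblim1 (r = 0.99), a filamin-binding adaptor of cell adhesions, followed by the creatine transporter gene Slc6a8 (0.98). Fblim1 had means of 195, 165 and 190.4 CPM over WT, SA and SE, and Slc6a8 247, 175 and 243 CPM, so both were lowest in SA. Nearest to Lgals3 were Slc15a3 (r = 0.99), an endolysosomal peptide and histidine transporter at 698, 594 and 857 CPM, Taf10 (0.99), a TFIID subunit, and Tmem132a (0.98), and the most opposite was Cmtm6 (-0.99).

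Lgals1 ran most like Uqcr10 (r = 0.98) and Cyc1 (0.98), subunits of respiratory complex III, and Nfyc (0.98), and most opposite to Grk5 (-0.98). Cd63 ran most like the actin-monomer binding protein gene Tmsb10 (0.97), at 246, 245 and 311 CPM, the chaperone gene Calr (0.96), at 1289, 1286 and 1437 CPM, and 1700123O20Rik (0.94), and most opposite to Rassf5 (-0.98). For Spp1 and Cd9, whose genotype means scarcely differed, the closest genes were less alike: 9930021J03Rik (0.92) for Spp1 and Rbks (0.90) for Cd9. The remaining nearest genes were Aak1 (0.89) and Cdk5rap2 (0.88) for Spp1, with Rpl6 (-0.92) most opposite, and Uqcrh (0.89) and Gsto1 (0.88) for Cd9, with Dusp22 (-0.90) most opposite.

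**Figure D3:**
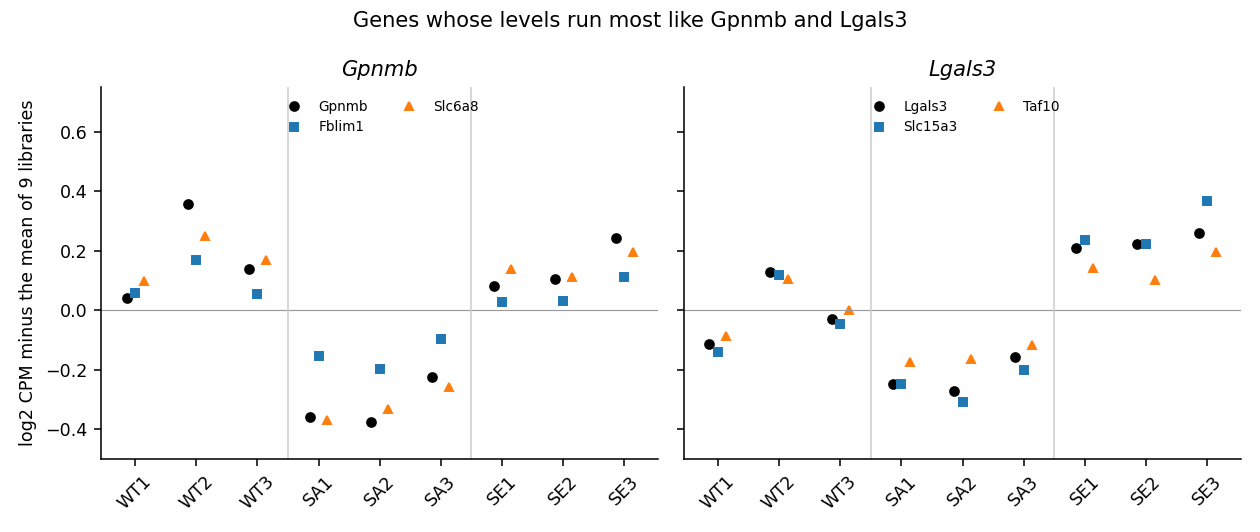
Log2 CPM by library, with each gene's mean over the 9 libraries taken off, for Gpnmb and Lgals3, and the 2 genes most like each. Fblim1 and Slc6a8 are low in the 3 SA libraries with Gpnmb, and Slc15a3 and Taf10 step from SA through WT to SE with Lgals3.

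Per kilobase of the principal transcript, Lgals3 was the highest of the 6 genes at 6055 CPM per kb over all 9 libraries, followed by Gpnmb (4479), Cd63 (1075), Lgals1 (946), Cd9 (690) and Spp1 (497). In WT the ranges of Lgals3 (5540 to 6556 CPM per kb) and Gpnmb (4538 to 5658) overlapped. Within each WT library, though, Lgals3 lay above Gpnmb. In SA the ranges were 4969 to 5374 and 3398 to 3776 and did not overlap. The ranges of Cd63 and Lgals1 also overlapped in WT (994 to 1066 and 815 to 1025 CPM per kb), with Cd63 above Lgals1 within each WT library. Cd9 lay above Spp1 in every library, at 676 to 711 against 433 to 548 CPM per kb. The order depended on the length used: per kilobase of all exons joined, Lgals3 (4624) and Gpnmb (2545) still led, followed by Lgals1 (838), Spp1 (454), Cd9 (415) and Cd63 (324).

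Of the genes next to or overlapping the members on the chromosome, none that could be tested was called in any comparison. Malsu1, 2866 bp to the right of Gpnmb, had 8.43 to 10.5 CPM, Dlgap5, 1619 bp from Lgals3 on the opposite strand, 5.70 to 9.07 CPM, and Rdh5, 771 bp from Cd63, 2.11 to 3.19 CPM. Spp1 overlaps Gm42793 on the same strand (12 to 22 counts) and Cd9 overlaps the antisense genes Gm28809 (7 to 32 counts) and Gm26728 (2 to 18 counts). Whether the counting used strand is not given in the sources used here, but these counts are small beside those of Spp1 and Cd9.

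Beyond the 6 genes, 42 further genes of the lipid-associated program were tested. In SA against WT, 11 of the 42 fell and none rose (26.2% called, beside 4.07% of all genes), with a median log2 difference of -0.10 beside 0.00137 over all genes. DESeq2 called 11 lower and 0 higher, and at an unadjusted p under 0.05 edgeR had 15 lower and 7 higher. The largest falls were in Ctsl, the gene of the lysosomal protease cathepsin L, from 1838 ± 32 to 1322 ± 36.9 CPM (log2 -0.48, edgeR adjusted p = 2.84e-05), in Fabp4, a fatty acid binding protein gene, from 57.2 ± 0.88 to 41.6 ± 2.70 CPM (log2 -0.46, edgeR adjusted p = 0.000409), and in Ctsd, the gene of cathepsin D, from 3454 ± 270 to 2540 ± 39.2 CPM (log2 -0.44, edgeR adjusted p = 0.000523). In each of these 3 genes all SA libraries lay below all WT libraries.

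The other 8 genes that fell, given here although the values were seen first, were Atp6v0d2 (log2 -0.35), Fth1 (-0.32), Creg1 (-0.32), Fabp5 (-0.31), the lipid droplet coat gene Plin2 (-0.29), Syngr1 (-0.28), the CD11c gene Itgax (-0.23) and Soat1 (-0.23), which encodes the cholesterol esterifying enzyme. The count moved when single libraries were left out: it was 4 without WT3 or without SA1, and 5 without SA2 or without SA3. Over the same libraries 18 genes of G2/M and mitosis summed to 193 to 230 CPM for WT, 132 to 167 CPM for SA and 188 to 220 CPM for SE. In SA against WT 9 of these 18 were called lower (50%, beside 4.07% of all genes, 2.1% lower), and 0 had a log2 difference above 0. In SE against SA 9 of the 18 were called higher (50%, beside 10.2%). Their part in the fall of Gpnmb and these genes was not tested.

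Trem2 and its adaptor were not called in either mutant. Trem2, the lipid receptor of the program, stood at 1131 ± 94.4, 1076 ± 30.8 and 1097 ± 76.7 CPM over WT, SA and SE (edgeR adjusted p = 0.762 for SA and 0.792 for SE against WT), and its signalling adaptor gene Tyrobp at 762 ± 78.8, 708 ± 14.3 and 742 ± 29.8 CPM (adjusted p = 0.582 and 0.82). Lpl, the lipoprotein lipase gene, had means of 4033 ± 592, 4857 ± 493 and 4228 ± 465 CPM, with its highest value in SA and a difference from WT that was not called (log2 0.27, edgeR adjusted p = 0.216). These 3 were named after their values were seen.

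In SE against WT, 1 of the 42 genes was called (2.38%, beside 5.04% of all genes). It was Cst7, the gene of the protease inhibitor cystatin F, a low transcript named after its values were seen, that rose from 2.63 ± 0.47 to 4.42 ± 0.29 CPM (log2 0.77, edgeR adjusted p = 0.00942). Without WT3 or without SE1 no gene of the list was called, without SE2 the count was 2, and without WT2 it was 7. In SE against SA, 16 of 42 were higher and 1 lower (40.5%, beside 10.2%), with a median of 0.18. The largest rises were in Fabp4 (log2 0.54, 41.6 to 60.5 CPM), Ctsl (0.49) and Atp6v0d2 (0.47), a subunit gene of the vacuolar proton pump. Without SA1 the SE against SA count was 10, and without SA2 it was 11.

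The most abundant genes of the list per kilobase of exon were Psap, Fth1 and Apoe. Psap was at 16544 ± 1889, 14306 ± 1002 and 17618 ± 1140 CPM for WT, SA and SE, and rose in SE against SA (log2 0.30, edgeR adjusted p = 0.0251). Fth1, the ferritin heavy chain gene, stood at 10377 ± 1470, 8328 ± 553 and 10499 ± 276 CPM, and fell in SA against WT (edgeR adjusted p = 0.0394). Apoe, the apolipoprotein E gene, had 4353 ± 418, 4145 ± 229 and 5170 ± 250 CPM and rose in SE against SA (log2 0.32, edgeR adjusted p = 0.00829), with 0.25 against WT (adjusted p = 0.0556).

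**Figure D4:**
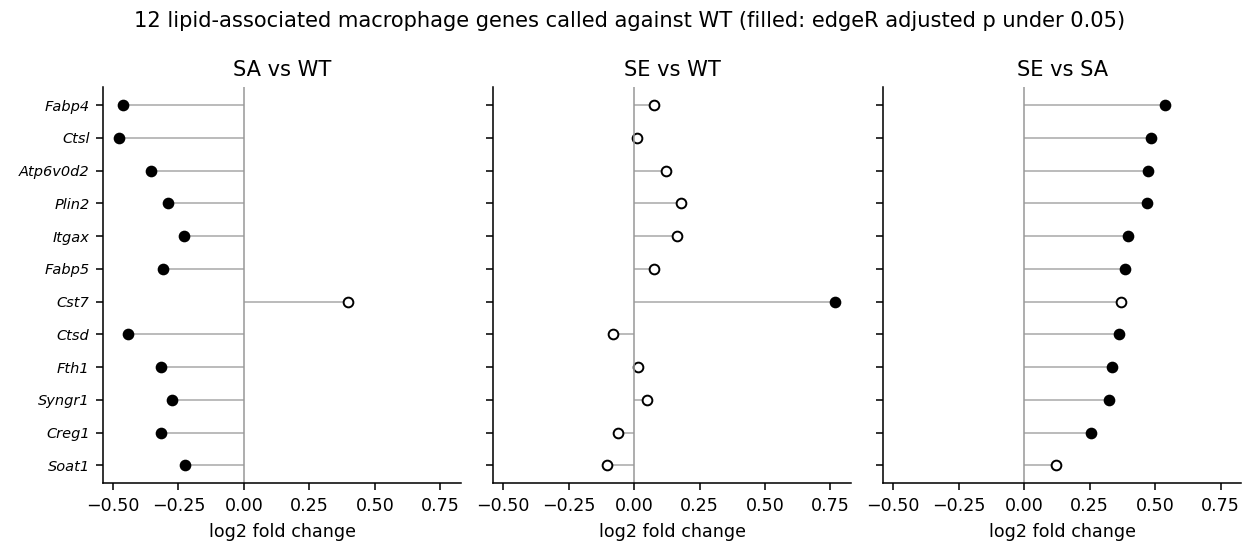
Log2 fold change in each comparison of the 12 further lipid-associated macrophage genes, of 42, that were called against WT in SA or SE, ordered by SE vs SA, where filled points are called at an edgeR adjusted p under 0.05. The 11 called genes of SA vs WT lie below 0, and Cst7 is the one called in SE vs WT.

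Genes that act with GPNMB were few. Of 5 relatives, ligands and sheddases tested, Sdc4, the gene of the heparan sulfate proteoglycan syndecan-4, which GPNMB can bind, rose in SA against WT from 164 ± 7.49 to 205 ± 5.75 CPM (log2 0.32, edgeR adjusted p = 0.00246), opposite in direction to Gpnmb. It fell in SE against SA (log2 -0.25, edgeR adjusted p = 0.0116), as did the sheddase gene Adam17 (log2 -0.23, edgeR adjusted p = 0.0102), while the sheddase gene Adam10 was not called at 277 ± 23.8, 259 ± 10.5 and 257 ± 21 CPM. No gene of the 5 was called in SE against WT by edgeR or DESeq2, nor at an unadjusted p under 0.05, beside 5.04% of all genes. The share called was 20% in SA against WT and 40% in SE against SA, beside 4.07% and 10.2% of all genes.

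Gpnmb is known as a target of the MiT/TFE transcription factors, which drive lysosomal genes. The transcripts of 3 of these factors were not called in any comparison: Mitf stood at 193 ± 16.4, 200.4 ± 4.20 and 182 ± 12.7 CPM over WT, SA and SE, Tfe3 at 216 ± 4.01, 217 ± 5.72 and 220 ± 7.51 CPM, and Tfeb at 126 ± 10.4, 126 ± 5.26 and 135 ± 7.88 CPM. These factors are controlled largely through their place in the cell, which mRNA levels do not show. Rragc (193 ± 8.64, 192 ± 14.2 and 181 ± 5.19 CPM) and Flcn (159 ± 8.64, 153 ± 9.12 and 155 ± 16.7 CPM), parts of the pathway that holds these factors in the cytosol, were not called either. Of the 9 factors and regulators tested, 11.1% were called in each comparison, beside 4.07% (SA against WT), 5.04% (SE against WT) and 10.2% (SE against SA) of all genes. Fnip2, the gene of a folliculin partner, fell in SA (378 ± 17.8 to 322 ± 6.80 CPM, log2 -0.23, edgeR adjusted p = 0.0462) and in SE (log2 -0.25, edgeR adjusted p = 0.0216), and Tfec, the macrophage-enriched member, rose in SE against SA (44.1 ± 6.86 to 56.0 ± 1.33 CPM, log2 0.35, edgeR adjusted p = 0.0173).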

How the data were processed

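Raw counts per gene were deposited by the authors for 9 libraries. Per the submitters' processing notes, reads were aligned to mm10 with HISAT2 2.1.0 and counted with featureCounts, for which no source used here gives the version or the strand setting. Gene IDs were paired with symbols through GENCODE (55141 of 55401 matched, 260 not). From the counts, edgeR 4.0.16 in R 4.3.3 was used: filterByExpr with a minimum count of 10 and total of 15 (13501 genes kept), TMM scaling, and a robust quasi-likelihood fit over the 3 genotypes with 6 residual degrees of freedom. Genes with a Benjamini-Hochberg adjusted p below 0.05 over all genes tested were called. CPM are TMM-scaled, errors are SD over 3 libraries, and the biological coefficient of variation was 6.75%. The steps of the edgeR fit were tested on simulated counts.

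The members and the gene lists were chosen with earlier results of these data known. Named are the 6 members, from each list and comparison the 3 called genes of at least 5 CPM with the largest rise and the 3 with the largest fall, the 3 most abundant per kilobase of exon, markers at 0, neighbours by position, and for each member the 3 genes most like it and the most opposite. A few genes that this rule names are not reported here. Genes named beyond this rule, with their values seen, are marked in the text or are Adam10, Tspan33, Cd63-ps, Mitf, Tfe3 and Tfeb. Alternatives were other scalings and filters, DESeq2 1.42.0, only the 2 groups compared, a replicate block, and leaving out libraries.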

Additional observations from a re-analysis of the deposited data

How the results depend on the processing

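Under 18 other ways of fitting the counts, Gpnmb in SA vs WT (log2 -0.57 to -0.41), Gpnmb in SE vs SA (0.41 to 0.51) and Lgals3 in SE vs SA (0.41 to 0.49) kept direction and call in every one, and no call that was made changed sign. Lgals3 in SA vs WT became called with DESeq2 (-0.224), with no filter on low counts (-0.217) and without WT1 and SE2 together (-0.276). In SE vs WT, Lgals3 (0.217, 0.231, 0.235, 0.288), Lgals1 (0.231, 0.244, 0.247, 0.346) and Cd63 (0.211, 0.214, 0.277, from DESeq2 on) became called under library totals alone, DESeq2, no filter, and without WT2 and SE3 together, in that order. Cd63 in SE vs SA lost its call under library totals alone (0.169) and without WT1 and SE2 together (0.165). Differences near 0 that were never called changed sign: Cd63 in SA vs WT was 0.0276 (library totals), 0.00346 (upper quartile), 0.00574 (no filter), 0.00258 (mean of at least 5 CPM), 0.00124 (only the 2 groups) and 0.0329 (without WT2 and SE3), Lgals1 in SA vs WT 0.0399 and Gpnmb in SE vs WT 0.00319 (both without WT2 and SE3), and Cd9 -0.00887 in SE vs WT and -0.00036 in SE vs SA (library totals). Calls over all genes were 903 in SA vs WT and 1215 in SE vs WT without WT2 and SE3, and in SE vs WT 438 with only the 2 groups fitted and 372 without WT1 and SE2. The lipid-associated list in SE vs WT had 2 calls with library totals, 3 with DESeq2, 4 with no filter, 0 at a mean of at least 5 CPM, 7 without WT2 and SE3 and 0 without WT1 and SE2. With library totals alone the split of calls in SE vs SA was 473 higher and 925 lower, beside 644 and 732. Leaving out 1 library at a time gave these ranges. In SA vs WT: all genes 297 to 652, the list 4 to 13, Spp1 -0.126 to 0.0269, Lgals3 -0.276 to -0.154, Lgals1 -0.131 to 0.0379, Cd63 -0.0434 to 0.0309. In SE vs WT: all genes 292 to 1097, the list 0 to 7, Gpnmb -0.112 to 0.0538, Spp1 -0.113 to 0.00973, Lgals3 0.175 to 0.302, Lgals1 0.173 to 0.346, Cd9 -0.00446 to 0.0219, Cd63 0.170 to 0.245. In SE vs SA: all genes 781 to 1762, the list 10 to 21, Spp1 -0.0957 to 0.0572, Lgals1 0.266 to 0.337, Cd63 0.170 to 0.254. With a replicate block, Cd63 was 0.000311 in SA vs WT and 0.212 in SE vs SA (edgeR adjusted p = 0.0547, no longer called), and 500, 568 and 1189 genes were called in SA vs WT, SE vs WT and SE vs SA. Deviations of same-numbered libraries from their group means correlated between -0.195 and 0.105, so the numbers were not taken to pair them. Differently numbered libraries reached values farther from 0: 0.27 for WT2 with SE3, 0.178 for WT1 with SE2 and -0.261 for WT1 with SE3. The pairs WT2 with SE3 and WT1 with SE2 are those left out together above. The causes of these changes were not tested. The lowest count of any of the 6 genes in a library was 12246 (Spp1).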
